A study of Mus musculus with 15 samples.

Results

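This report describes where the transcription factor Sp7 was found on the genome of mouse primary osteoblasts and of MC3T3-E1 cells, and which of its sites were common to both. The members were Sp7 regions, that is, merged FLAG ChIP-seq peaks that held a peak of both replicates of a cell system and no peak of the FLAG control of that system. There were 6284 such regions in all, of which 831 were common to both systems, 1266 were special to primary osteoblasts and 4187 were special to MC3T3-E1 cells. Merging the peaks of the 10 tagged lists of the study outside both controls gave 60764 sites.

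Primary osteoblasts came from the calvaria of C57BL/6 pups at postnatal day 1. They carried a tagged form of Sp7 on both alleles (genotype Sp7-BioFL/BioFL), and their control was wild-type cells of the same strain, age and tissue. MC3T3-E1 cells, an established mouse line of calvarial origin, were used at passages 5-10. For 1 week before the pulldown they grew in a medium that induces osteoblast differentiation. It held ascorbic acid phosphate (50 ug/ml), beta-glycerophosphate (10 mM) and the growth factor BMP2 (10 ng/ml). Their Sp7 carried a FLAG tag, and the control was the FLAG pulldown labelled GFP. How Sp7 was expressed in the line is not stated in the labels, so a gene tagged in the animal stands here against a tagged protein of unstated level. The cell system, the culture, the source of the tagged protein and the input library differed together between the systems and cannot be told apart. All libraries shared the M2 antibody against FLAG. A list of peak positions holds no expression values, so the labelled cell types were not checked against marker genes.

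Sp7, also called Osterix, is a zinc finger protein of the Sp family and is required for the formation of osteoblasts, the cells that lay down bone matrix. Its relative Sp1 binds GC-rich sites through similar zinc fingers in most cell types. Dlx5 is a homeodomain protein of skeletal development that binds AT-rich sites, and the title of the study places Sp7 beside Dlx factors. The comparison of both systems asks how far Sp7 occupancy in a cell line matches that in osteoblasts taken from bone.

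The primary lists were much shorter than the line lists. In primary osteoblasts, Sp7 had 2666 peaks in replicate 1 and 3212 in replicate 2, and the wild-type control had 183. In the line, Sp7 had 18624 and 6063 peaks, and the GFP control had 269. Line replicate 1 thus held 3.07 times as many peaks as line replicate 2, and the class counts, shares, row parts and loci were recomputed with each line replicate left out. For 2 lists per system the smallest p of an exact permutation test, two-sided, is 0.333. No test between systems was therefore made, and replicate spread is given as the range over single lists. The total read depth behind the lists is unknown, because the lists used here carry neither counts nor scores. Median peak width was 195 and 176 bp in the primary lists and 164 and 163 bp in the line lists.

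Sp7 occupied a minority of its sites in both systems. Of the 2097 primary regions, 831 met a line region, a share of 39.6% (95% Clopper-Pearson interval 37.5 to 41.8). Of the 5018 line regions, the same 831 met a primary region, a share of 16.6% (15.5 to 17.6). For comparison, 8.19% of all merged peaks in the study were line Sp7 regions and 3.44% were primary Sp7 regions. These intervals cover counting error only. Over the 4 pairs of single lists the primary share ran from 38.1 to 42.3% and the line share from 5.98 to 19.9%, the low end being line replicate 1. Between replicates of 1 system, 81.5 and 67.7% of primary peaks and 27.7 and 85.1% of line peaks were met. Both primary lists were therefore met by the line lists less often than by each other, at 38.1 to 42.4% of their peaks outside control peaks.

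The shares from both sides were closer at equal list length, because the same common regions were then divided by more similar totals. Their closeness therefore does not show how alike the systems were. With every list kept to its first 2666 rows, the length of the shortest Sp7 list, 26.4% of primary regions met a line region and 29.8% of line regions met a primary region. That setting left 514 common regions. Rows stand in an order that the labels do not explain, and row position is used here only as a description.

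**Figure D1:**
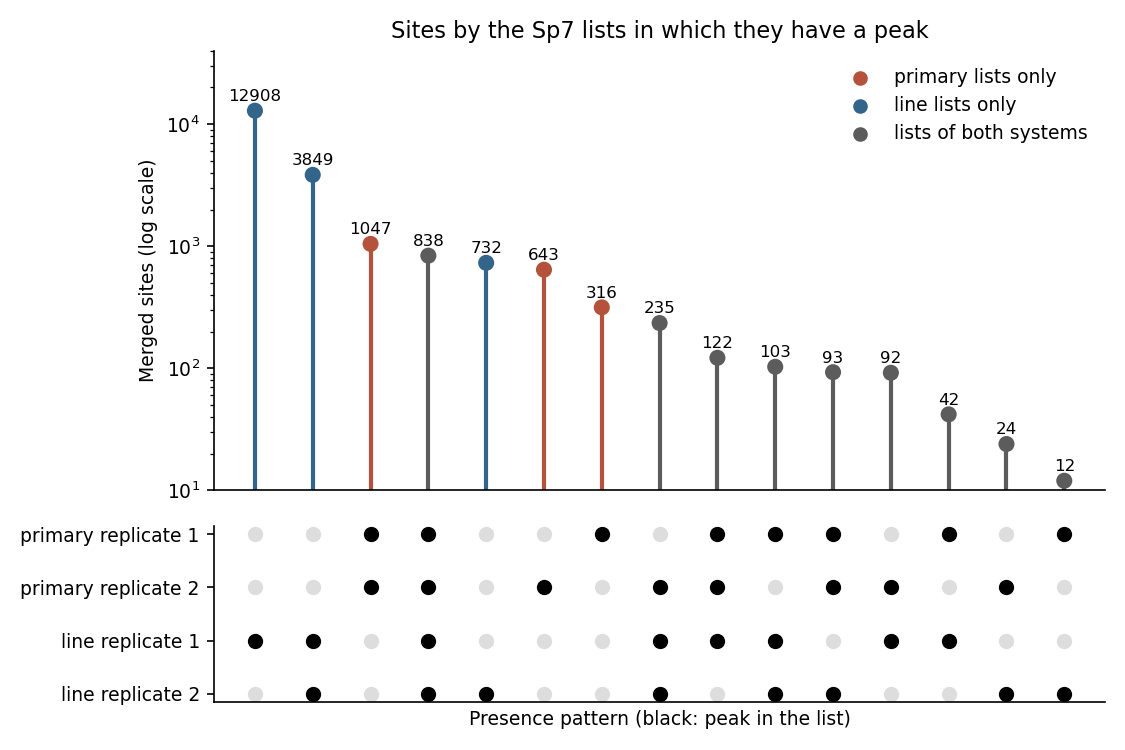
Merged sites of the 4 Sp7 lists outside control peaks (log axis), by the lists in which each has a peak, marked by the black dots. The most frequent pattern is a peak in line replicate 1 alone (12908 sites), and 838 sites have a peak in all 4 lists.

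Merging all 4 Sp7 lists gave 21056 sites, and most of them were seen once. A peak in line replicate 1 alone accounted for 12908 sites, 61.3% of the total. Both line lists and neither primary list held 3849 sites, and both primary lists and neither line list held 1047. All 4 lists held 838 sites. Sites with both primary lists and 1 line list were fewer, at 122 with line replicate 1 and 93 with line replicate 2. Sites with both line lists and 1 primary list numbered 103 for primary replicate 1 and 235 for primary replicate 2. Sites of both lists of 1 system and neither of the other thus outnumbered sites that lacked a single replicate.

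The absence of a region in the other system was mostly the absence of any peak. Of the 1266 primary-special regions, 1041 (82.2%) had no peak of either line replicate, 122 had a peak of line replicate 1 alone and 94 of line replicate 2 alone. The remaining 9 had peaks of both, and 6 of these lay over a GFP control peak, which had removed them from the line regions. Of the 4187 line-special regions, 3843 (91.8%) had no peak of either primary replicate. A peak of primary replicate 1 alone was present in 104 and one of replicate 2 alone in 237. With primary replicate 2 alone, which drops the need for a second primary peak, primary-special regions numbered 2037. With line replicate 1 alone, line-special regions numbered 17299.

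At common sites the distances between peak centres of the systems were set beside those between replicates. Only overlapping peaks were measured, and common regions were defined by overlap. Short distances were thus in part fixed by that choice. Midpoints of overlapping peaks were a median of 20.5 to 22.8 bp apart in the 4 pairings of 1 primary and 1 line list. Within a system it was 21.0 bp between the primary replicates and 15.5 bp between the line replicates. The share of peak pairs with midpoints within 50 bp was 79.0 to 81.4% between systems, 83.8% between primary replicates and 85.3% between line replicates. The distances between systems were thus close to those between the primary replicates and above those between the line replicates.

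Common regions stood earlier than special regions in every Sp7 list. A row percentile is relative to the length of its list, and the line lists were longer. The percentiles thus do not show in which system common regions stood earlier. Their median row percentile was 32.4 and 27.1 in the primary lists, against 48.3 and 43.6 for primary-special regions. In the line lists it was 6.48 and 13.1, against 18.8 and 51.3 for line-special regions. From the earliest to the latest 20% of primary regions, the common share fell from 61.4% to 27.9%. Among line regions it fell from 45.9% in the earliest 20% to 14.6% in the next 20% and 5.98% in the latest. Without line replicate 1 these 3 shares of line regions were 44.7, 14.6 and 3.80%, and with the longer list of line replicate 1 alone they were 17.3, 3.42 and 1.40%.

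The order of the common regions differed between the systems. Of the 258 common regions in the earliest 20% of primary regions, 188 were in the earliest 20% of line regions as well. Of the 117 in the latest 20% of primary regions, 47 were also in the earliest 20% of line regions and 18 in the latest. Over the 831 common regions, the mean row percentiles of the systems had a Spearman correlation of 0.336, against 0.854 between primary replicates and 0.825 between line replicates. These are descriptions across regions that share the same 4 libraries, and regions are not independent replicates.

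The 5 common regions with the earliest rows are given here with their mm9 coordinates, 1-based. The first, chr19:23458763-23458967, stood at rows 10 and 22 of the primary lists and at rows 6 and 2 of the line lists. It was also row 2 in both Dlx5 lists and rows 1 and 3 of the Sp7mut lists, and row 11802 of Sp1 replicate 2, with no peak in Sp1 replicate 1. The second, chr17:44447248-44447412, stood at rows 8 and 20 in primary cells and at row 21 in both line lists. The third, chr10:66406380-66406687, stood at rows 19 and 26 in primary cells and 33 and 28 in the line. The fourth, chr3:97860743-97860934, was row 9 and row 18 in primary cells and came later in the line, at rows 75 and 56. The fifth, chr4:128896015-128896191, stood at rows 23 and 30 in primary cells and 13 and 22 in the line. All 5 were Dlx5 and Sp7mut regions and 0 of the 5 were Sp1 regions. Each of the 5 nevertheless met a peak of Sp1 replicate 2, and none met a peak of the shorter Sp1 replicate 1. The widest common region, chr10:117342345-117343760, spanned 1416 bp, stood far later (rows 2183, 794, 2556 and 2272 in the 4 lists) and was also a Dlx5, an Sp7mut and an Sp1 region.

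Some of the leading sites of each system had no peak in the other. Among the first 100 primary regions, 70 were common and 21 had no line Sp7 peak. Among the first 100 line regions, 75 were common and 16 had no primary Sp7 peak. Among the first 10, 8 primary regions and 10 line regions were common. Among the first 1000 regions the common shares were 50.8% in primary cells and 46.0% in the line.

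The primary-special site with the earliest rows, chr17:42534544-42534746, stood at rows 11 and 25 of the primary lists and had no line Sp7 peak. The nearest line region lay 479 kb away. In the Dlx5 lists the same site came at rows 6680 and 7720, and no Sp7mut or Sp1 peak met it. The next, chr10:20194823-20194992, at primary rows 16 and 42, lay 496 kb from a line region and met 1 peak each of Dlx5 (replicate 2) and Sp7mut (replicate 1). At chr19:58375368-58375564, primary rows 24 and 37, both Dlx5 and both Sp7mut lists had a peak while both line Sp7 lists had none. The site chr10:125562996-125563225, at primary rows 30 and 56, met a Dlx5 peak of replicate 2 alone, at row 25981. The last of these 5, chr17:87734789-87734968, at primary rows 35 and 52, stood at rows 3658 and 67 of Dlx5 replicates 1 and 2 and at rows 365 and 1742 of Sp7mut replicates 1 and 2, and a line Sp7 region lay 15.1 kb away. Leading primary sites without line Sp7 thus included sites met by both lists of Dlx5 and Sp7mut and sites met by 1 list alone. The widest primary-special region without a line peak, chr3:145158082-145158613, spanned 532 bp and met Dlx5 alone.

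The leading line-special sites were met by Dlx5 and Sp7mut in every case. The first, chr1:14000994-14001129, stood at rows 15 and 13 of the line Sp7 lists, at rows 22 and 76 of Dlx5 and 26 and 40 of Sp7mut, and its nearest primary region was 1554 kb away. It was also an Sp1 region, at rows 9694 and 13051. The second, chr10:16996514-16996665, had line rows 63 and 14 and no Sp1 peak. The site chr13:72197572-72197742 had line rows 28 and 39, and chrX:137220233-137220394 had rows 38 and 42. The fifth, chr2:92973747-92973920, had rows 68 and 45. Each of the 5 lay at least 518 kb from any primary region, and all 5 were both Dlx5 and Sp7mut regions. The widest line-special region without a primary peak, chr8:86725312-86727660, spanned 2349 bp and lay 2.91 kb from a primary region. It was an Sp7mut and an Sp1 region. Both Dlx5 lists had a peak in it, at rows 6018 and 29370, but it was not a Dlx5 region.

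Dlx5 was mapped in the line alone, so its lists share cells, culture and an input library with line Sp7. Common regions were nearly all Dlx5 regions (813 of 831, 97.8%), beside 38.7% of all merged peaks of the study. Line-special regions were Dlx5 regions in 81.7% of cases (80.5 to 82.9), and primary-special regions in 50.2% (47.4 to 52.9). Of the primary-special regions without any line Sp7 peak, 42.3% were Dlx5 regions. Single Dlx5 lists gave 98.4 and 98.6% of common, 88.4 and 88.0% of line-special and 52.1 and 72.5% of primary-special regions. The order of the classes was therefore the same with either Dlx5 list, while the primary-special value was the one that differed most between the lists. With every list kept to its first 2666 rows the shares were 84.0% of common, 34.9% of line-special and 16.7% of primary-special regions.

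Common regions were also among the earliest rows of the Dlx5 lists. Their median row percentile there was 3.02 and 2.08 in Dlx5 replicates 1 and 2. Where a Dlx5 peak met them, line-special regions stood at 20.3 and 19.8 and primary-special regions at 25.1 and 13.1. In the Sp7mut lists common regions stood at 8.87 and 6.23, line-special regions at 28.1 and 23.2 and primary-special regions at 42.4 and 38.4. In the Sp1 lists common regions stood later, at 63.5 and 52.7, than line-special regions, at 34.8 and 31.5. Primary-special regions stood there at 46.4 (21 regions with a peak) and 66.1 (103 regions).

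A primary Sp7 region without a Dlx5 region in the line was rarely a line Sp7 region, also within 20% parts of the row order. Of the 649 primary regions without a Dlx5 region, 18 (2.77%) were common, against 813 of 1448 (56.1%) with one. In the earliest 20% of primary regions the shares were 10.3% without and 71.3% with Dlx5. In the latest 20% they were 2.98% and 44.6%. Without line replicate 1 the shares over all primary regions were 4.31% without and 61.9% with Dlx5, and without line replicate 2 they were 4.93% and 63.7%. The median row percentiles of both subsets within the earliest 20% were 12.4 and 9.75, so the regions with Dlx5 stood somewhat earlier within that part.

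Among the line regions of both replicates the same split was narrow at the start of the lists and wider, in ratio, further down. In the earliest 20%, 46.4% of regions with Dlx5 and 28.6% of the 28 regions without it were common. In the second 20% the shares were 16.5% and 0 of 114, which allows up to 2.63%, and in the latest 20% 7.99% and 1.32%. Of the line-special regions in the earliest 20%, 96.3% were Dlx5 regions, close to the 98.3% of the common regions there. The narrow start rested on few regions without Dlx5 and was not seen with line replicate 1 alone. There, 19.9% of regions with Dlx5 and 2.56% of those without were common in the earliest 20%. Without line replicate 1 these shares were 45.6% and 19.5%.

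**Figure D2:**
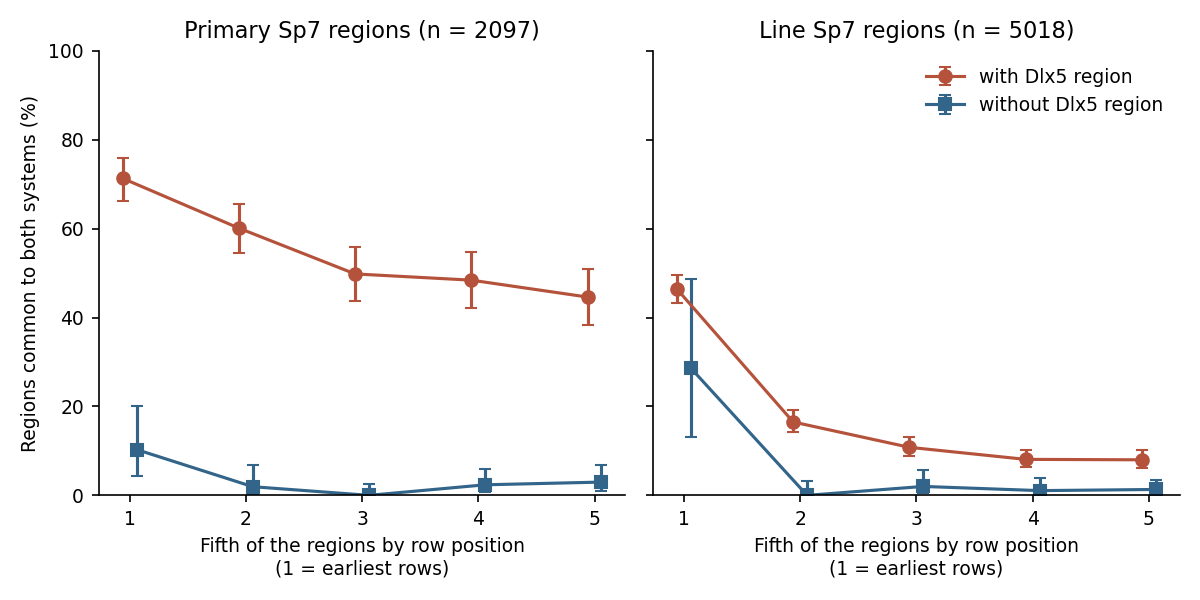
Percentage of Sp7 regions common to both systems (y axis), by successive 20% parts of the regions in row order (x axis), for regions with and without a Dlx5 region; bars are 95% Clopper-Pearson intervals. In primary cells (left) regions without Dlx5 stay at or below 10.3% and those with Dlx5 at or above 44.6%, while in the line (right) both fall steeply after the earliest part.

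Sp7mut, a mutant of Sp7 whose change is not stated in the labels, followed the same classes. It met 91.2% of common regions, 65.3% of line-special regions and 21.2% of primary-special regions, beside 13.3% of all merged peaks. With line replicate 1 alone in place of both line replicates, the line-special share was 33.0%. Of primary regions with an Sp7mut region 73.9% were common, against 6.82% of those without (12.9% of those without when line replicate 1 stood alone). Of the 1041 primary-special regions without a line Sp7 peak, 142 (13.6%) were Sp7mut regions, close to the 13.3% of all merged peaks. Of these 142, 125 were Dlx5 regions as well, beside 42.3% of the 1041. Sp7mut regions of the other classes were mostly Dlx5 regions too. Without Sp1, 1344 line-special regions had both and 161 had Sp7mut without Dlx5. Among common regions these counts were 671 and 9. The Sp7mut lists were called against another input library than those of line Sp7.

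Sp1 divided the classes in another way. It met 34.3% of line-special regions (32.9 to 35.8), 9.75% of common regions (7.82 to 12.0) and 1.11% of primary-special regions (0.606 to 1.85), beside 14.6% of all merged peaks. Of the 1522 line regions with Sp1, 5.52% were common, against 21.4% of the 3496 without. Within 20% parts of the row order of line regions the direction was the same. In the earliest 20% of line regions, 19.7% of those with Sp1 and 55.3% of those without were common, at median row percentiles of 7.66 and 5.57. With line replicate 1 alone the shares over all line regions were 1.96% with and 6.29% without Sp1, and those in the earliest 20% were 5.74% and 23.8%. In the fourth 20%, 0 of 285 with Sp1 were common, which allows up to 1.05%, against 9.46% of those without. Primary regions went the other way, also within each 20% part. Of the 95 primary regions with Sp1, 85.3% were common, against 37.5% of the 2002 without. The size of the Sp1 shares depended on the Sp1 replicate and on list length. With every list kept to its first 2666 rows they were 24.5% of line-special, 2.53% of common and 0.209% of primary-special regions. Sp1 replicate 2, with 28210 peaks, met 58.7% of common and 70.7% of line-special regions, and replicate 1, with 10549, met 10.2% and 36.0%. Sp1 and line Sp7 were called against different inputs.

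**Figure D3:**
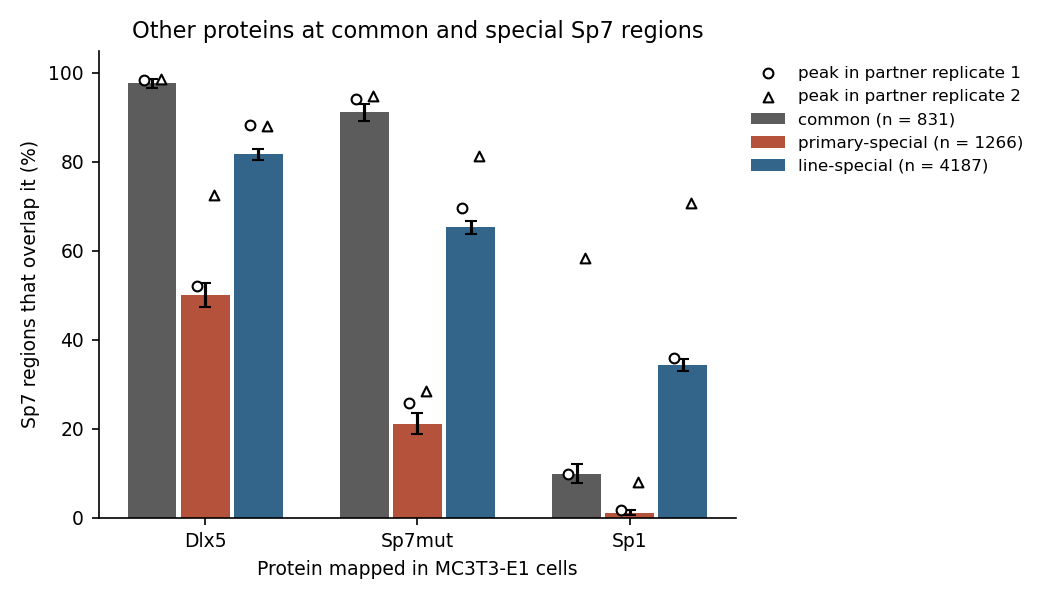
Percentage of common, primary-special and line-special Sp7 regions (bars, with 95% Clopper-Pearson intervals) that overlap a region of Dlx5, Sp7mut or Sp1 in MC3T3-E1 cells; open symbols count a peak of 1 replicate alone. Common regions are highest for Dlx5 (97.8%) and Sp7mut (91.2%), and line-special regions for Sp1 (34.3%).

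Combinations of the 3 proteins separated the classes further. Dlx5 and Sp7mut without Sp1 met 671 of the 831 common regions (80.7%), 32.1% of line-special regions and 18.6% of primary-special regions. All 3 proteins met 22.5% of line-special regions, 8.78% of common regions and 8 of the primary-special regions. None of the 3 met 605 primary-special regions (47.8%), 5.66% of line-special regions and 4 common regions. The shares of these combinations among all merged peaks of the study were not computed. The values thus compare the classes with each other alone. With line replicate 1 alone, Dlx5 and Sp7mut without Sp1 met 13.7% of line-special regions and none of the 3 met 25.1% of them and 15 common regions. With line replicate 2 alone, none of the 3 met 9.42% of line-special regions and 9 common regions. Counting single peaks as well, 306 primary regions (14.6% of all 2097) were met by no peak in any of the 8 line lists of tagged proteins. Of these 306, 72 (23.5%) had a Dlx5 region within 10 kb. The line had 23682 Dlx5 regions, and the same share was not computed for other sites. This count therefore does not show whether the 306 lay closer to Dlx5 than other sites.

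A minority of special regions lay within 10 kb of a region of the other system. Of the primary-special regions, 2.92% had a line region within 1 kb, 13.3% within 10 kb and 47.5% within 100 kb, with a median distance of 114 kb. Of the line-special regions, 1.41% had a primary region within 1 kb, 6.78% within 10 kb and 30.7% within 100 kb, with a median of 242 kb. Over the 4 pairs of single lists the share within 10 kb ran from 15.3 to 29.0% for primary-special and from 6.46 to 10.7% for line-special regions. Within 1 kb it ran from 4.16 to 9.20% and from 1.42 to 3.27%, and within 100 kb from 49.9 to 72.5% and from 32.2 to 39.8%. Within their own system, 13.1% of primary-special and 20.4% of line-special regions had a neighbour within 10 kb. For common regions these values were 10.8% among primary and 19.5% among line regions. Distances to the other system were not computed for other sites of the study. They therefore do not show whether special regions lay closer to the other system than such sites.

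Regions were also joined into loci, which can only raise how often the systems meet. Regions of either system that lay within 50 kb of each other were joined into 4221 loci, of which 757 held a common region. A further 227 loci held regions of both systems and no common one, 751 held primary regions alone and 2486 line regions alone. With line replicate 1 alone, 426 loci held regions of both systems and no common one, 422 held primary regions alone and 5986 line regions alone. Of the primary-special regions, 33.9% lay in a locus with a line region, and of the line-special regions, 21.6% lay in a locus with a primary region. The same shares were not computed for other sites. They therefore do not show whether special regions shared loci with the other system more often than other sites.

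Single loci differed in how the systems used them. On chromosome 1, 64887570-64899295 (11.7 kb) held 6 primary and 3 line regions, and all 3 line regions were common. On chromosome 17, 45156276-45224316 (68.0 kb) held 5 primary and 4 line regions with 2 in common. On chromosome 6, 4367281-4492493 (125 kb) held 4 primary and 12 line regions, of which 1 was common. On chromosome 19, 5787147-5850430 (63.3 kb) held 11 line and 2 primary regions with 0 in common. On chromosome 2, 27613951-27787816 (174 kb) held 11 line regions and 0 primary regions. These loci were chosen after their counts were seen, as those with the most regions of a system, and no annotation of mm9 was used to name their genes.

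Peaks were shared out differently over the chromosomes in the systems. Chromosome 6 held 5.51 and 4.98% of the peaks of the primary lists and 8.32 and 10.2% of those of the line lists. Chromosome 17 held 4.76 and 4.73% in primary cells and 6.80 and 7.98% in the line, and chromosome 11 held 5.63 and 5.73% against 9.05 and 8.26%. Chromosome 13 went the other way, with 5.78 and 5.51% in primary cells and 3.12 and 2.67% in the line. Chromosome 3 did so too, with 6.71 and 6.29% against 4.12 and 3.45%. On each of these 5 chromosomes the primary and line lists did not overlap in their values, also when kept to their first 2666 rows. This was not particular to them. With all rows, the lists of the systems overlapped only on chromosomes 4, 8, 15, 16 and Y. They lay apart on every other chromosome, such as 18 (4.50 and 4.48% against 2.21 and 2.26%). The 5 chromosomes were picked after their values were seen, and no test was made.

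On chromosomes 6 and 13 the other proteins mapped in the line differed from the primary lists in the same direction as line Sp7. The Dlx5 lists had 7.75 and 7.56% of their peaks on chromosome 6, the Sp7mut lists 8.20 and 8.06% and the Sp1 lists 6.39 and 6.74%, all above both primary lists. On chromosome 13 they had 4.07 and 4.31%, 2.82 and 3.12%, and 2.81 and 3.21%, all below both primary lists. The Sp1 values on chromosome 6 were nevertheless closer to the primary than to the line Sp7 values. The Dlx5 values on chromosome 13 lay between those of the primary and the line Sp7 lists. On both chromosomes the common regions were closer to the primary than to the line values, with 5.42% on chromosome 6 and 5.05% on chromosome 13. The line-special regions had the most uneven spread of these, with 11.1% on chromosome 6 and 2.39% on chromosome 13, against 5.85% and 6.64% of the primary-special regions. Of the line regions on chromosome 6, 8.82% were common, against 29.6% of those on chromosome 13. On chromosome Y, primary replicate 2 had 18 peaks and replicate 1 had 0, and 0 Sp7 regions of either system lay there.

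**Figure D4:**
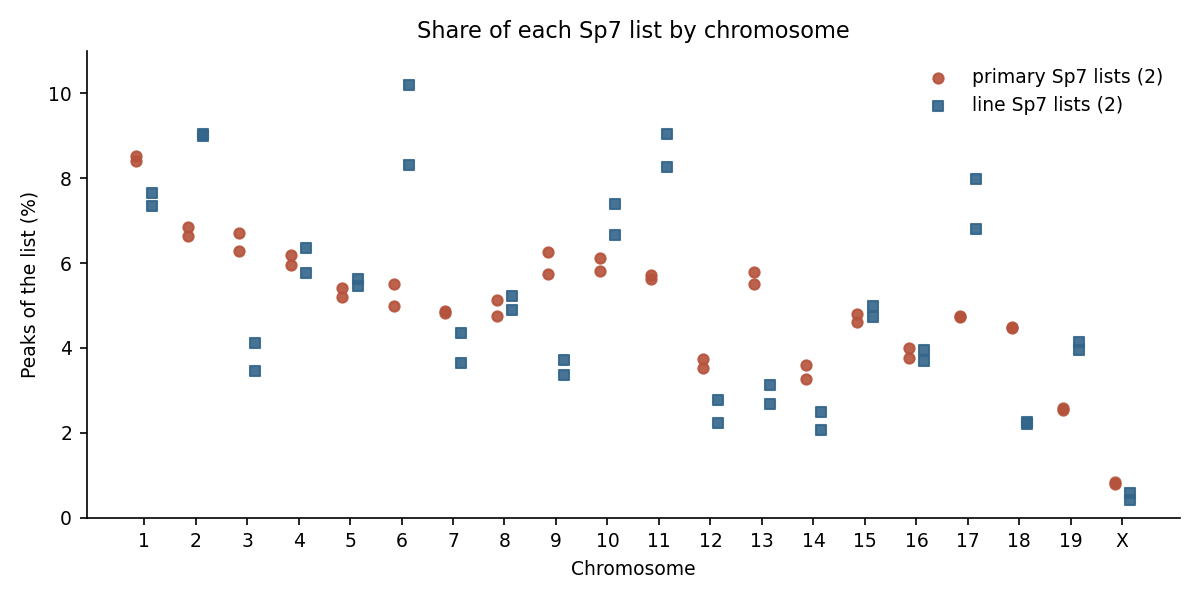
Percentage of the peaks of each Sp7 list on each chromosome (points, 2 primary and 2 line lists). The line lists lie above the primary lists on chromosomes 6, 11 and 17 and below them on chromosomes 3 and 13. On most other chromosomes the lists of the systems do not overlap either.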

How the data were processed

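The authors deposited FLAG ChIP-seq peaks library by library. Lists of 12 samples were used, out of 15 samples with the 3 inputs. Each list has 3 columns, and the deposited values are positions alone, with no score or read count. Coordinates are in mm9, as the submitters' processing notes state. Aligner, peak caller and calling threshold were not given in the sources used here. Primary Sp7 and the wild-type control were, per the labels, called against a primary input, line Sp7 and Dlx5 against one line input, and Sp1 and Sp7mut against another. Nothing in the labels tells whether the replicates were separate cultures or litters, and their spread may be only technical.

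Groups and replicate numbers came from sample titles. An overlap was any shared stretch of at least 1 bp, and abutting peaks were not merged. A region held peaks of both replicates and none of the control of its system. Intervals are 95% Clopper-Pearson, and an upper limit for a count of 0 is 3 counts of the total; both cover counting error only. Row position was the mean over replicates of the earliest row percentile in a region. Distances are gaps between region edges. Named regions are the 5 with the earliest rows and the widest of each class (special ones without any peak in the other system). The members, lists and naming rule were chosen with earlier results of these data known. Region building and overlaps were tested on simulated data with planted overlaps. Alternatives were a 50% overlap, the wider or earlier 50% of each list, equal length, 2 other treatments of controls, a 200 bp merging distance, a stricter definition of special regions, and each Sp7 replicate left out. Single replicates of the other proteins, merging of abutting peaks, and single line replicates for row parts and loci were added after seeing the data. Planned distances to transcription starts, nearby genes and motif shares need a genome and annotation of mm9, which were not used here. The software was numpy 2.4.6, scipy 1.17.1, pandas 2.3.3 and matplotlib 3.10.9 under Python 3.11.15.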

Additional observations from a re-analysis of the deposited data

Results flagged for a closer look

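The share of peaks that overlapped an Sp1 region differed between common and special regions in opposite directions in the systems. In primary osteoblasts it was higher in common than in special regions, by 8.49 percentage points in replicate 1 (9.59% against 1.10%) and 8.55 in replicate 2 (9.57% against 1.02%). In MC3T3-E1 cells the difference of common minus special regions was -23.0 percentage points in replicate 1 (10.1% against 33.2%) and -23.4 in replicate 2 (9.87% against 33.2%). Both lists of each system moved the same way, which is what marked the result, and the difference was not tested. The replicates are not independent here, because a region needed a peak of both. With single Sp1 lists the differences were 7.76 to 8.06 and 48.8 to 48.9 points in primary cells and -24.2 and -10.0 to -9.98 points in the line, for Sp1 replicates 1 and 2. Sp1 was mapped in the line alone.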

How the results depend on the processing

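The alternatives were run on those results they can change, out of the counts of the 3 classes, the 2 shares met, the 9 shares with Dlx5, Sp7mut and Sp1, the shares near a region of the other system and the midpoint distances. Of 201 recomputed values, 136 moved by less than the standard deviation over single lists (for counts, by less than 1.5 times). Common regions had the highest Dlx5 share, line-special regions the highest Sp1 share and primary-special regions the lowest Sp1 share in 15 of 15 alternatives. The highest Sp7mut share was that of common regions in 14 of 15, the exception being the wider 50% of each list. Keeping control peaks, removing those of either control, merging within 200 bp and merging abutting peaks moved none of the 14 values each was run on beyond that spread. For Sp1 the spread is wide, at 22.5 points for common and 2.87 points for primary-special regions. Both spreads exceed the Sp1 shares themselves (9.75 and 1.11%), so no fall of these shares could pass them. For line-special regions a fall from 34.3 to 20.0%, with an overlap of at least 50%, also stayed within the spread. Staying within the spread therefore shows little for the Sp1 shares. With control peaks kept, the Sp1 share of primary-special regions was 3.67% against 1.11%. No depth or signal is given, so how depth limits the lists is unknown. No paired analysis was possible because none of these results comes from a test.

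Leaving out 1 Sp7 replicate of either system gave 34.4 to 45.5% of primary regions met and 5.24 to 21.2% of line regions met. The number of primary-special regions ran from 1143 to 2037 and that of line-special regions from 3955 to 17299. Shares with Dlx5 were 95.7 to 97.0% of common and 57.7 to 81.5% of line-special regions. Shares with Sp7mut were 85.5 to 89.8% of common, 17.1 to 19.4% of primary-special and 33.0 to 64.9% of line-special regions. Shares with Sp1 were 8.91 to 14.3% of common, 0.683 to 2.16% of primary-special and 25.2 to 34.6% of line-special regions. The lowest shares of line regions met and of line-special regions with Dlx5 and Sp7mut came without line replicate 2, that is, from the longer line list alone. Row parts, loci and splits by Dlx5 and Sp1 were recomputed with each line replicate left out, a choice made after seeing the data, and the larger moves stand beside those results.

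With an overlap of at least 50% of both, 33.6% of primary regions were met. Dlx5 shares were then 92.1% of common and 60.5% of line-special regions, Sp7mut shares 85.6% and 49.6%, and Sp1 shares of common, primary-special and line-special regions 3.80, 0.586 and 20.0%. With the wider 50% of each list, 58 common, 553 primary-special and 1364 line-special regions were left, and 9.49% of primary and 4.08% of line regions were met. Dlx5 shares of the 3 classes were then 31.0, 14.1 and 28.7%, Sp7mut shares 22.4, 9.04 and 22.8%, and the Sp1 share of line-special regions 13.9%. With the earlier 50% of rows, 453 common, 626 primary-special and 2131 line-special regions were left, 42.0% of primary regions were met and 19.3% of primary-special regions had Sp7mut. Sp1 shares of the 3 classes were then 2.43, 0.160 and 25.4%. At the length of the shortest Sp7 list, 514 common and 1212 line-special regions were left, and 26.4% of primary and 29.8% of line regions were met. Dlx5 shares were then 84.0, 16.7 and 34.9%, and Sp7mut shares 85.8% of common and 11.8% of primary-special regions.

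Primary-special regions without a peak of either line replicate had Sp7mut in 13.6%. With replicate 2 of each other protein alone, Dlx5 met 72.0% of primary-special regions, Sp7mut 94.9, 28.1 and 81.3% of common, primary-special and line-special regions, and Sp1 58.4, 7.66 and 70.6%. With replicate 1 of each alone, Sp7mut met 94.1% of common and 25.3% of primary-special regions. Within 1, 50 and 100 kb in place of 10 kb, 2.92, 33.5 and 47.5% of primary-special and 1.41, 19.8 and 30.7% of line-special regions had a region of the other system. The mean of the median distances between midpoints was 21.4 bp, and 18.6 bp in common regions within the earlier 50% of rows of all 4 lists.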
